A study of Mus musculus with 6 samples.

Results

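Chromaffin cells of the adrenal medulla pack catecholamines into dense-core granules together with acidic granin proteins, neuropeptides and the enzymes that cut peptide precursors. The list of genes described here was chosen with earlier results of these data known. It holds 10 mouse genes of that cargo, taken by symbol out of 54532 genes in the count table. They are the granins and granin-like proteins Chga, Chgb, Scg2, Scg3 and Scg5, the peptide precursors Npy, Penk and Cartpt, and the prohormone convertases Pcsk1 and Pcsk2. Each of the 10 was matched to 1 Ensembl identifier, and all 10 passed the filter on low counts, with at least 30 counts in every library.

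Granins condense inside the granule and help to load and shape it, and they are themselves cut into smaller peptides. Pcsk1 (PC1/3) and Pcsk2 (PC2) cleave prohormones at pairs of basic residues, and Scg5 (7B2) is the chaperone that proPC2 needs to mature. Npy encodes neuropeptide Y, Penk the precursor of the enkephalins, and Cartpt the CART peptides, all of which chromaffin cells can release with adrenaline and noradrenaline. Transcription of several of these genes is known to respond to cAMP and to splanchnic nerve activity.

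The libraries were bulk RNA-seq of whole adrenal gland, 3 from mice labelled WT and 3 from mice labelled VEGF/LysM, made to ask what VEGF-A of macrophages does in the gland. The labels give tissue and genotype name, but not the alleles, the promoter behind "LysM", the age or the sex of the mice. They do not say that the 3 samples of a group were separate animals, so p-values measure the spread between these samples only, which may be technical. Because whole glands were read, fewer chromaffin cells and less RNA per chromaffin cell cannot be told apart in any value below.

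Library totals ran from 16476879 to 18671950 counts. Markers of the labelled tissue were present: the cortical steroid enzyme gene Cyp21a1 stood at 6018 to 14280 CPM (counts of the gene per 1000000 counts of the library, TMM-scaled) and the catecholamine enzyme gene Th at 338 to 731 CPM. Pancreatic islets also make granins and convertases, and Ins1, Ins2, Gcg, Iapp and Ppy had 0 counts in all 6 libraries, which allows at most 0.161 to 0.182 CPM of the library total (3 counts, counting error only). WT replicate 3 stood apart. A list of 12 hepatocyte genes took 6.46% of its counts, against 0.0147% to 0.0988% in the other 5 libraries. Its summed kidney tubule markers were 41.5 CPM against 0.293 to 3.94, and its summed B cell markers 1140 CPM against 58.9 to 272. Summed adrenal cortex markers were lowest there, at 31720 CPM against 46910 to 56660. VEGF/LysM replicate 3 also stood apart, to a lesser degree: the hepatocyte gene Alb gave 51380 CPM in WT replicate 3, 169 CPM in VEGF/LysM replicate 3 and at most 1.06 CPM in the other 4 libraries. Group differences of the 10 genes are therefore given with and without WT replicate 3, and in the plot of fold changes also without both.

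Short promoter stretches are shown because the cAMP response element, the site bound by CREB family factors, was looked for in all 10 genes without use of any measured level. Promoter windows of RefSeq (GRCm38.p6, 250 bases before to 50 bases after each transcript start) covered 9 of the 10 genes; Penk had no entry. The element TGACGTCA, which reads the same on both strands, was present in the windows of 4 of the 9 genes, Scg2, Chgb, Pcsk1 and Cartpt, against 1.79% of 32817 mouse windows. Its core TGACG, searched on both strands and contained in every full element, was present in 8 of the 9 and in 20.8% of all windows. The letters TATAAA, also searched on both strands, were present in 1 of the 9, Chga, and in 13.6% of all windows. In Chga they begin at base 6 of the transcript, after its RefSeq start and not before it. The lines below give 30 bases around the element, or around the core for Chga, 5′ to 3′ on the gene's strand, with the matched letters in capitals.
Scg2: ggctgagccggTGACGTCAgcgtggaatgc
Chgb: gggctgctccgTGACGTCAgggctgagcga
Pcsk1: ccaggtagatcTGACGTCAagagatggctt
Cartpt: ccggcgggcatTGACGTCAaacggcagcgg
Chga: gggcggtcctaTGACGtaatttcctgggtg
The Scg2 stretch lies at chr1:79440076-79440105 on the minus strand, with its element starting 68 bases before the RefSeq start. That of Chgb lies at chr2:132781559-132781588 on the plus strand, with the element 72 bases before the start. The Pcsk1 stretch is chr13:75089768-75089797 on the plus strand, and its element begins 78 bases before the start. For Cartpt the stretch is chr13:99900777-99900806 on the minus strand, and the distance is 112 bases. For Chga it is chr12:102554886-102554915 on the plus strand, 44 bases before the start. The stretches of Scg2, Chgb and Cartpt fall inside an annotated GENCODE exon, whose models start further upstream, and those of Chga and Pcsk1 fall outside any exon of their gene. A match of letters is a description of the sequence and not a measured binding site.

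The genes differ widely in level. Divided by the length of their exons, mean levels over the 6 libraries were 1032 ± 346 CPM per kb for Chgb (SD, n = 6, both groups), 798 ± 234 for Chga, 461 ± 114 for Scg2 and 289 ± 87.3 for Npy. These were the 4 abundant transcripts of the set. Below a 13.6-fold gap with no overlap came Scg5 at 21.2 ± 6.72 CPM per kb, Penk at 10.4 ± 1.71, Scg3 at 9.80 ± 2.38 and Pcsk1 at 9.51 ± 2.57. Cartpt stood at 3.38 ± 1.17 and Pcsk2 was the lowest at 0.870 ± 0.202 CPM per kb. Among the 4 abundant genes the ranges of neighbours overlapped between libraries, but within every library Chgb exceeded Chga, Chga exceeded Scg2 and Scg2 exceeded Npy. The order of Chgb and Chga turned when the longest transcript was used as length, at 1032 and 1167 CPM per kb. Penk exceeded Scg3 in 4 of 6 libraries and Scg3 exceeded Pcsk1 in 3 of 6, so these neighbours did not differ beyond their spread. Cartpt lay below Pcsk1 and above Pcsk2 without overlap, but by the longest transcript the lowest Cartpt value, 1.80 CPM per kb, was under the highest of Pcsk2, 1.88.

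**Figure D1:**
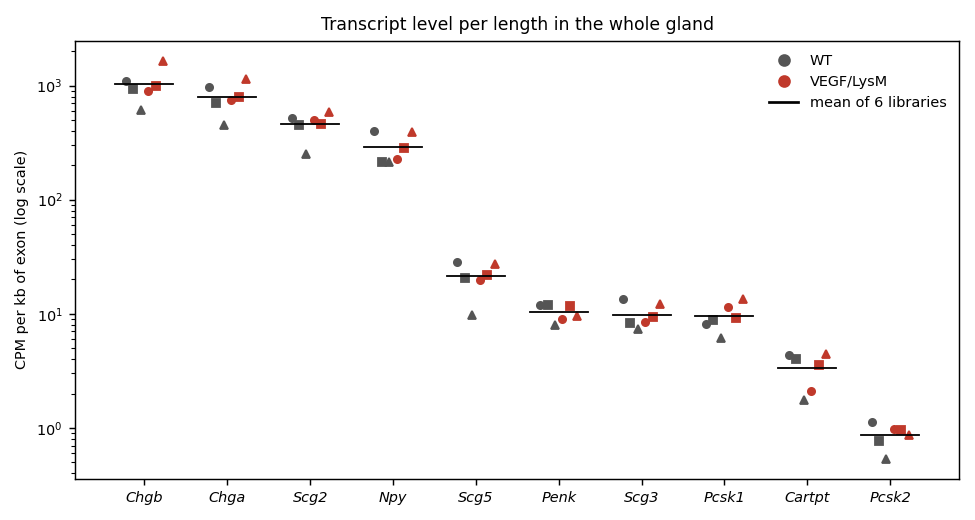
Level of each gene in CPM per kb of exon (log axis), 1 point per library, coloured by group, with genes in order of their mean. Chgb, Chga, Scg2 and Npy form an upper group, separated by a 13.6-fold step from Scg5 and the rest.

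Between the groups, none of the 10 genes passed edgeR's quasi-likelihood test at an adjusted p of 0.05; the adjusted p was 0.999 for each. No gene of the whole table did: 0 of 16300 tested genes (0%) were called by edgeR, and DESeq2 and limma-voom called 0 as well. At an unadjusted p under 0.05 edgeR had 459 genes, or 2.82% of those tested, and 1 of the 10 members, Pcsk1. The fold changes of 9 members lay above 0 and that of Penk below, with a median log2 fold change (VEGF/LysM minus WT) of 0.21. Over all tested genes the median was 0.0013 and 50.3% lay above 0. The balance of the members depended on single libraries. Without WT replicate 3, 4 members lay above 0 and 6 below, with a median of -0.02. Without both libraries numbered 3 the counts were 2 and 8, with a median of -0.15. The members' median was 0.095 without VEGF/LysM replicate 3 alone and 0.54 without WT replicate 1.

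**Figure D2:**
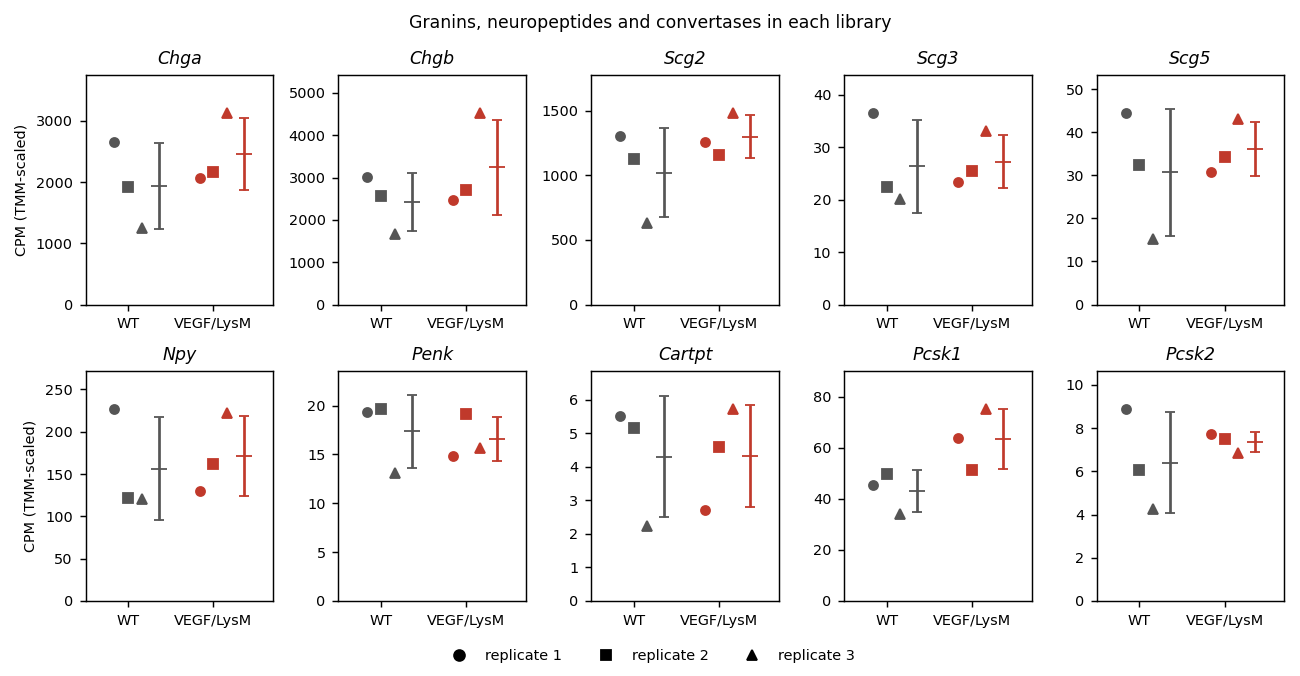
TMM-scaled CPM of each gene in the 6 libraries, 1 panel per gene, with points for single libraries and bars for the group mean ± SD (n = 3). Values of the groups overlap in 9 panels and are apart only for Pcsk1, with a WT range of 34.1 to 49.7 CPM and a VEGF/LysM range of 51.4 to 75.2.

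Among the granins, chromogranin A (Chga, chr12:102554969-102565028, GRCm38, plus strand, 8 exons) was read at 2653, 1923 and 1248 CPM (WT replicates 1 to 3) and, in the same order of replicates, 2065, 2168 and 3132 CPM for VEGF/LysM. The lowest and the highest value are thus WT replicate 3 and VEGF/LysM replicate 3, and the remaining 4 libraries are interleaved. Chromogranin B (Chgb, chr2:132781278-132795079, plus strand, 5 exons) gave 3013, 2557 and 1668 CPM in WT and 2476, 2717 and 4529 CPM in VEGF/LysM, with the same 2 libraries at the ends. Secretogranin II (Scg2, chr1:79434669-79440120, minus strand, 2 exons), the precursor of secretoneurin, gave 1302, 1127 and 634 CPM in WT and 1258, 1156 and 1484 CPM in VEGF/LysM. Its 3 VEGF/LysM values lie close together, and apart from WT replicate 3 the groups are mixed. Log2 fold changes were 0.34 ± 0.32 for Chga (SE; 95% interval -0.43 to 1.10), 0.43 ± 0.33 for Chgb (-0.36 to 1.21) and 0.35 ± 0.29 for Scg2 (-0.34 to 1.03). The Chga interval spans folds from 0.744 to 2.15, so it includes both no change and a 2-fold rise. Without WT replicate 3 the fold changes were 0.098, 0.21 and 0.093, and without both libraries numbered 3 they were -0.11, -0.095 and -0.0029. Without WT replicate 1 they were 0.63, 0.62 and 0.56.

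Although the level of these 3 granins moved up to 2.72-fold between libraries (Chgb), their proportions moved little. The ratio of Chgb to Chga ran from 1.14 to 1.45 and that of Scg2 to Chga from 0.474 to 0.609 CPM per CPM, with overlapping groups. Together Chga, Chgb and Scg2 made up 94.4% to 95.8% of the counts of the 10 genes in every library. The 10 genes took 0.768%, 0.614% and 0.292% of all counts in WT and 0.624%, 0.646% and 0.984% in VEGF/LysM. The widest 95% Wilson interval of these shares was 0.980% to 0.989%, so counting error is far below the spread between libraries of a group.

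Secretogranin III (Scg3, chr9:75643189-75684056, minus strand, 12 exons), which tethers granins to the granule membrane, ranged over 20.1 to 36.6 CPM among WT libraries and 23.3 to 33.0 among those of VEGF/LysM. Its WT range encloses the VEGF/LysM range, and the log2 fold change was 0.047 ± 0.27, and -0.12 without WT replicate 3. Scg5 (chr2:113776362-113829121, minus strand, 6 exons) gave 44.5, 32.4 and 15.2 CPM in WT and 30.8, 34.2 and 43.0 CPM in VEGF/LysM. WT replicate 3 had 39.4% of the mean of the other WT libraries, the lowest such share among the 10 genes, while WT replicate 1 was the highest of all 6. The Scg5 log2 fold change was 0.23 ± 0.37 (95% interval -0.65 to 1.11), and -0.098 without WT replicate 3.

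Of the peptide precursors, Npy (chr6:49822710-49829507, plus strand, 4 exons) gave 227, 122 and 121 CPM in WT and 130, 162 and 223 CPM in VEGF/LysM. Each group holds 1 library far above its lowest, and the groups overlap throughout. Penk (chr4:4133531-4138819, minus strand, 2 exons) was the steadiest of the 10, at 19.4, 19.6 and 13.1 CPM in WT and 14.8, 19.1 and 15.7 CPM in VEGF/LysM. It was the only gene with a mean below that of WT. Cartpt (chr13:99898489-99901091, minus strand, 3 exons) gave 5.52, 5.15 and 2.23 CPM in WT and 2.70, 4.57 and 5.71 CPM in VEGF/LysM, from 30 to 100 counts per library. The group means of Cartpt, 4.30 ± 1.80 and 4.33 ± 1.52 CPM (SD, n = 3), were nearly equal while values within a group spread more than 2-fold. Log2 fold changes were 0.13 ± 0.31 for Npy (95% interval -0.61 to 0.88), -0.069 ± 0.22 for Penk (-0.60 to 0.46) and 0.0043 ± 0.44 for Cartpt (-1.05 to 1.05). Without WT replicate 3 all 3 lay below 0, at -0.025, -0.24 and -0.31. The ratio of Npy to Penk ran from 6.19 to 14.2, and its groups overlap.

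Npy is also a peptide of sympathetic neurons, so markers of ganglion neurons are given beside it. Prph, an intermediate filament gene of peripheral neurons, gave 83.1, 2.58 and 59.8 CPM in the WT libraries, against 2.70, 24.9 and 9.36 CPM with VEGF/LysM. Of the 12 ganglion neuron genes, none was at 0 throughout, and their summed level ran from 137 to 563 CPM in WT and from 113 to 250 in VEGF/LysM. The library with the most of this list, WT replicate 1, also has the highest Npy, Scg3, Scg5 and Pcsk2, whereas WT replicate 3 ranks second in the list and lowest for all 10 cargo genes. The part of ganglion tissue in these values was not tested.

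Among the 10 genes, a convertase was the only one whose groups did not overlap. Pcsk1 (chr13:75089826-75134861, plus strand, 14 exons) gave 45.5, 49.7 and 34.1 CPM in the WT libraries, against 63.9, 51.4 and 75.2 CPM in those of VEGF/LysM. All VEGF/LysM values are above all WT values, but the gap between the nearest libraries, 49.7 and 51.4 CPM, is small. Group means were 43.1 ± 8.09 and 63.5 ± 11.9 CPM (SD, n = 3), and the log2 fold change was 0.56 ± 0.20, with a 95% interval of 0.073 to 1.04, or 1.05-fold to 2.06-fold. It did not pass after adjustment over all genes (adjusted p = 0.999, edgeR). Non-overlap with VEGF/LysM higher held for 1 of the 10 members, and for 3.54% of all tested genes (5.95% in either direction), so 1 such gene among 10 is a description and no result about the set. Pcsk1 stayed above 0 in all 17 alternative fits, from 0.28 without both libraries numbered 3 to 0.67, with adjusted p values from 0.656 to 1 by the tool used in each. Because the groups do not overlap, leaving libraries out could hardly turn the direction of Pcsk1, so these fits add no independent evidence for it. Without WT replicate 3 its log2 fold change was 0.41.

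Pcsk2 (chr2:143546156-143816285, plus strand, 12 exons) gave 8.87, 6.08 and 4.23 CPM in WT and 7.74, 7.52 and 6.83 CPM in VEGF/LysM, from 57 to 156 counts per library. The 3 VEGF/LysM values sit together inside the WT range. The log2 fold change was 0.20 ± 0.31 (95% interval -0.54 to 0.94), and -0.024 without WT replicate 3. The libraries do not mark strand, and the Pcsk2 exons overlap Pcsk2os1 and Pcsk2os2 on the opposite strand, which had at most 30 and 2 counts in any library. Penk likewise overlaps A830012C17Rik, which had 0 counts throughout. The Pcsk1 to Pcsk2 ratio was 5.13, 8.18 and 8.05 in WT and 8.26, 6.83 and 11 in VEGF/LysM, with overlapping groups. Whether the group difference of Pcsk1 differs from that of Pcsk2 was not tested.

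**Figure D3:**
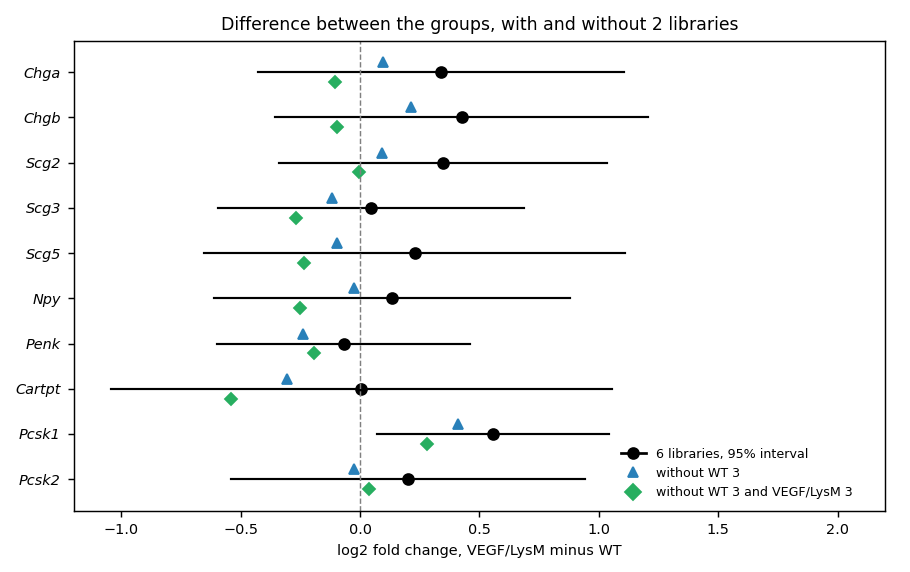
Log2 fold change (VEGF/LysM minus WT) of each gene with its 95% interval from the fit of all 6 libraries, beside the values without WT replicate 3 and without both libraries numbered 3. All intervals but that of Pcsk1 (0.073 to 1.04) include 0, and most values move to or below 0 when those libraries are left out.

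Across libraries the 10 genes shared a pattern that the groups do not describe. All 10 were lowest in WT replicate 3, where 29.7% of tested genes had their lowest value. Its levels were 39.4% (Scg5) to 71.6% (Pcsk1) of the mean of WT replicates 1 and 2. The highest value fell in VEGF/LysM replicate 3 for 5 genes (18.6% of tested genes), in WT replicate 1 for 4 (19.1%) and in WT replicate 2 for 1, Penk's 19.6 CPM (8.8%). In WT replicate 3 the low values coincide with the high hepatocyte, kidney and B cell transcripts given above. This rests on that library alone. VEGF/LysM replicate 3 had the next highest summed hepatocyte markers, 958 CPM, and the highest value of 5 of the 10 genes. The part of these transcripts in the result was not tested. Of the 9 catecholamine genes, 5 were below the mean of the other WT libraries in that library, among them Th at 78.0% and Dbh at 86.8%, the enzyme genes of dopamine and noradrenaline synthesis. The other 4 were above, up to 178% for Slc6a2. Of the 11 cortex genes, 8 were below and 3 above, from 38.0% for Hsd3b1 to 183% for Scarb1.

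**Figure D4:**
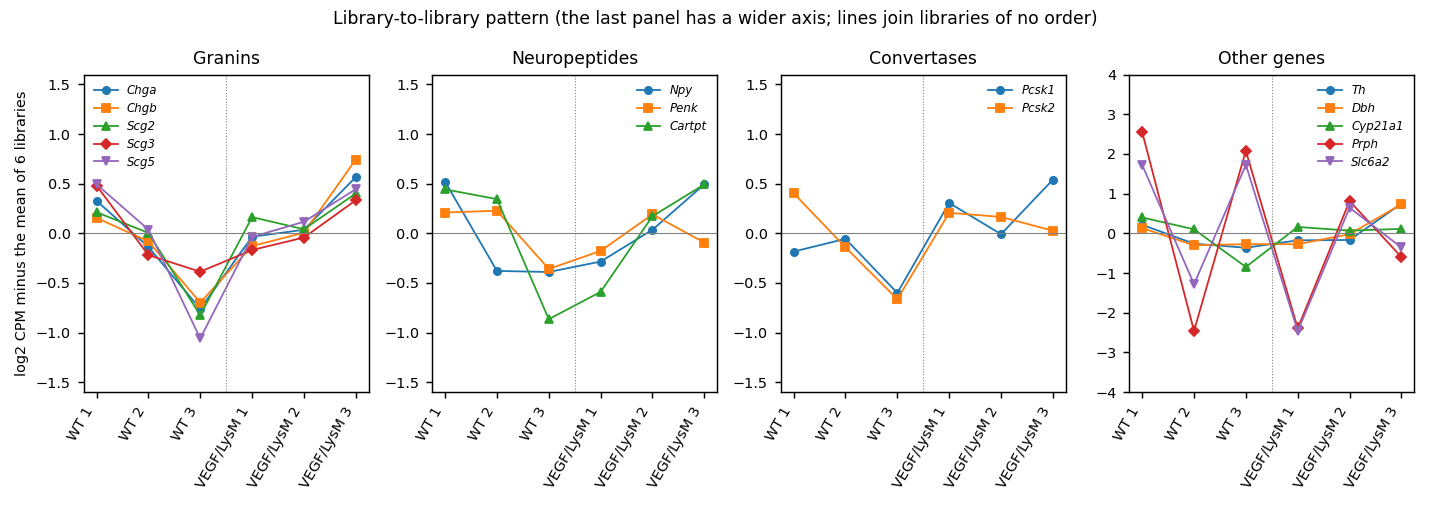
Log2 CPM of each gene minus its mean over the 6 libraries, in panels for granins, peptide precursors, convertases and other genes (the last on a wider axis); lines only join the points of 1 gene, since libraries have no order. The 10 cargo genes are at their lowest in WT replicate 3, whereas Prph and Slc6a2 are high there and in WT replicate 1.

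Dividing each gene by Th in the same library gives its level per unit of a catecholamine transcript, in CPM per CPM. Th itself gave 505, 363 and 338 CPM in the WT libraries, then 385, 387 and 731 CPM with VEGF/LysM. Dbh gave 432, 320 and 326 CPM, then 326, 388 and 656. Both were highest in VEGF/LysM replicate 3. Over Th, Chga was 5.25, 5.30 and 3.69 in WT and 5.36, 5.60 and 4.28 in VEGF/LysM, so the libraries numbered 3, which lay at opposite ends in CPM, became the lowest of each group. The SD of log2 values over the 6 libraries was smaller after division by Th for 8 of the 10 genes, and likewise by Dbh for 8. For Chgb it went from 0.47 to 0.19 and for Npy from 0.42 to 0.21. The exceptions were Penk, from 0.25 to 0.46, and Pcsk2, from 0.37 to 0.43. The share of all tested genes with a smaller SD after such division was not computed, so these counts are a description. Division by the other catecholamine genes was not made, and Ddc, Gch1, Slc18a2 and Slc6a2 differ from Th and Dbh in WT replicate 3. There they were above the mean of the other WT libraries. Penk over Th was 0.0215 in VEGF/LysM replicate 3, where Th was highest, against 0.0384 to 0.0541 in the other 5 libraries. No gene's ratio to Th or to Dbh separated the groups. For Pcsk1 the ratio to Th was 0.0901, 0.137 and 0.101 in WT and 0.166, 0.133 and 0.103 in VEGF/LysM, and the difference of mean log2 ratios was 0.29. With the mean of Th and Dbh as a term in the edgeR fit, chosen after the values were seen, the Pcsk1 log2 fold change was 0.45, that of Chga 0.11 and that of Chgb 0.13. With the planned covariate, the mean over all 9 catecholamine genes, they were 0.56, 0.36 and 0.42, and the median of the 10 genes was 0.24. That mean of log2 CPM weighs all 9 genes equally. Slc6a2, which ran from 7.45 to 136 CPM, moved 18.2-fold between libraries, against 2.16-fold for Th. The covariate is therefore no clean measure of medulla content.

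The 5 other genes nearest to Chga over the 6 libraries, by the root mean square difference of centred log2 CPM among 10515 genes with a mean of at least 10 CPM, were Resp18, 1500009L16Rik, C1ql1, Hoxb4 and Edn3. Resp18, a granule protein gene of endocrine cells, had a difference of 0.081 and gave 58.4, 46.5 and 29.2 CPM in the WT libraries, then 49.3, 54.8 and 67.2 CPM with VEGF/LysM. The other 4 lay between 0.085 and 0.11. All 5 were lowest in WT replicate 3 and highest in VEGF/LysM replicate 3, as Chga was. Counted with the cargo genes left in, Chgb ranked 7, Scg2 11 and Scg5 33, while Scg3 ranked 115, Npy 187, Pcsk1 421 and Penk 2239. Cartpt and Pcsk2 had means under 10 CPM and were not ranked. The catecholamine genes were scattered: Cyb561 ranked 47, Th 158, Slc18a1 220 and Dbh 361. Pnmt ranked 5003, Slc18a2 8492, Gch1 8607, Ddc 8929 and Slc6a2 10300. The likeness rests on 6 libraries and is a description.

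Other genes of the granule pathway, from fixed lists, did not pass the test either, with 0 called in each list. Of 18 further granule proteins and processing enzymes, 9 lay above 0 and 9 below, with a median log2 fold change of 0.062; without WT replicate 3 the counts were 13 and 5. Ptprn2, a transmembrane protein of granules, was the 1 gene of these 18 whose groups did not overlap: its WT libraries gave 26.3, 29.8 and 27.3 CPM and its VEGF/LysM libraries 35.5, 34.3 and 39.9 (log2 fold change 0.40 ± 0.14). Its WT replicate 3 value was 97.5% of the mean of the other WT libraries, unlike the 10 cargo genes. Non-overlap in either direction held for 5.95% of all tested genes, so 1 such gene among 18 is a description. Log2 fold changes were 0.30 ± 0.19 for the convertase Pcsk5, 0.13 ± 0.32 for carboxypeptidase E (Cpe), which trims the basic residues left by the convertases, and 0.17 ± 0.27 for the amidating enzyme Pam. They were -0.073 ± 0.37 for proSAAS (Pcsk1n), which inhibits Pcsk1, 0.41 ± 0.52 for Vgf and 0.29 ± 0.29 for Ptprn. Of 19 docking and exocytosis genes 6 lay above 0 and 13 below, with a median of -0.068, and the values of Unc13b (0.33 ± 0.18) and Syt7 (0.41 ± 0.24), the pair with the smallest p, were above.

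Of the 9 catecholamine genes 5 lay above 0 and 4 below, with a median of 0.094. That median was 0.0096 in the fit without WT replicate 3, and without both libraries numbered 3 it was -0.16, with 2 genes above 0 and 7 below. The values were 0.32 ± 0.31 for Th, 0.35 ± 0.29 for Dbh, -0.49 ± 0.32 for Ddc and 0.67 ± 0.33 for Pnmt, the enzyme that makes adrenaline, and 0.32 ± 0.19 for the vesicular amine transporter Slc18a1. Of 10 chromaffin identity factors 9 lay above 0 (median 0.18; the pair with the smallest p, Eya1 and Insm1, at 0.46 ± 0.31 and 0.33 ± 0.25), and without WT replicate 3 the count was 4 of 10 with a median of -0.0029. Only 4 of 18 other neuropeptide precursor genes were high enough to test, with 2 on each side of 0 and all 4 below 0 without WT replicate 3. Nmb and Pomc, the pair with the smallest p, stood at -0.79 ± 0.56 and -0.85 ± 0.77 from at most 2.67 CPM. Of 10 peptide receptor genes 5 were tested, 3 above 0 and 2 below, with a median of 0.20 that was 0.015 without WT replicate 3. The pair with the smallest p were the PACAP receptor Adcyap1r1 at 0.27 ± 0.19 and the neuropeptide Y receptor Npy2r at 0.44 ± 0.36. Of the 12 ganglion neuron genes 11 lay below 0, with a median of -0.92, and of the 11 cortex genes all lay above 0, with a median of 0.23 that was 0.029 without WT replicate 3.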

How the data were processed

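RNA came from fresh whole adrenal glands, and libraries followed Smart-seq2, which does not mark strand, per the labels' protocols. The authors deposited whole-number counts per gene, not normalized. kallisto, DESeq2 1.36.0 and mm10 are named in the submitters' processing notes; the sources used here state neither their roles nor an annotation. Counts were filtered with filterByExpr (minimum count 10, minimum total count 15; 16300 genes kept), TMM-scaled and fitted with edgeR 4.0.16 (R 4.3.3) by quasi-likelihood with group as the only term, two-sided, with Benjamini-Hochberg adjustment over all genes tested and a threshold of 0.05. TMM factors were 0.84 in WT replicate 3 and 1.02 to 1.05 elsewhere, and the common biological coefficient of variation was 0.365. The fit was tested on simulated data. Alternatives were other scalings, filters, tests (DESeq2 1.42.0, limma-voom 3.58.1) and covariates, a replicate block, and libraries left out. Lengths and gene coordinates are from GENCODE (GRCm38), and 54409 of 54532 identifiers matched a symbol. Promoters are from RefSeq.

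Named genes were the 10 members, Th, Dbh, Ddc, Pnmt, Cpe, Pam, Pcsk1n, Vgf and Ptprn, from each other list the pair with the smallest p, the 5 genes nearest to Chga, and markers of another cell type that move with a result. The members and the lists were chosen with earlier results of these data known. The lists not described in the report had 0 genes called: Schwann and sustentacular (10 tested, median -0.20, and -0.039 without WT replicate 3, Erbb3 -2.02, Cdh19 0.39), adipocyte (8 tested, median -0.026, Lep 0.73, Cfd -0.22), hepatocyte (6 tested, median -7.47, turning to 2.26 without that library, Ahsg -6.94, Trf -3.33), kidney tubule (1 tested, Lrp2 -1.54, turning to 0.42 without it), B cell (7 tested, median -3.22, and -0.88 without it, Ighm -2.18; the other named gene is not reported here) and islet and acinar (1 tested, Cela1 -0.0085).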

Additional observations from a re-analysis of the deposited data

How the results depend on the processing

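With 3 libraries in each group, 95% intervals of log2 fold changes reached 0.61 to either side at the median over all tested genes, and Cartpt and Pcsk2 rest on few counts. None of the 10 genes passed under any of the 18 alternatives, a threshold of 0.1 included. Of 170 gene and setting pairs in the 17 refits, 142 kept their direction and 28 turned. The number of genes called ran from 0 to 1 when single libraries were left out (1 without WT replicate 3, not a member) and was 0 otherwise. At an unadjusted p under 0.05 edgeR had 1098 of 28809 genes without a filter, against 459 of 16300. Leaving out 1 library moved that count between 143 (without VEGF/LysM replicate 1) and 1279 (without WT replicate 2). The members' median ran from -0.024 to 0.54 over the fits without 1 library and was -0.15 without both libraries numbered 3. In that last fit Chga was at -0.11, Chgb -0.095, Scg2 -0.0029, Scg3 -0.27, Scg5 -0.24, Npy -0.25 and Cartpt -0.54; fewer samples were fitted, and no other cause was tested. Leaving out 1 library moved Chga between 0.098 and 0.63, Chgb between 0.11 and 0.62, Scg2 between 0.093 and 0.56, Scg3 between -0.12 and 0.36, Scg5 between -0.098 and 0.60, Npy between -0.098 and 0.50, Penk between -0.24 and 0.030, Cartpt between -0.31 and 0.23 and Pcsk2 between -0.024 and 0.51. With the Th and Dbh covariate, chosen after seeing the data, Scg3 was at -0.14, Npy -0.12 and Cartpt -0.27. Cartpt, at 0.0043, also turned with DESeq2 size factors (-0.0065), no filter (-0.0053) and at least 1 CPM in 3 libraries (-0.00046). It turned as well with the DESeq2 test (-0.0077) and the planned catecholamine covariate (-0.012). The cause was not tested. With the longest transcript as length, Chga moved from 798 to 1167 CPM per kb and Pcsk2 from 0.870 to 1.46. The sample titles link libraries of the groups by replicate number only. Correlations of the deviations of same-numbered libraries were 0.064, -0.014 and 0.25. Those of differently numbered libraries ran from -0.25 to 0.32. Whether same-numbered libraries share more than the number is not stated, and both libraries numbered 3 held raised Alb. With the replicate block 0 genes were called, the members' median was 0.30 and Pcsk1 stood at 0.56.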
